A study of Bos taurus with 60 samples.

Results

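Heat-stressed (HT) and cooled (CL) cows were compared at D14 of the dry period in 12 mammary biopsy libraries, 6 HT and 6 CL, out of 60 libraries in the series. The members were taken from the labels of treatment and time alone. All 12 animals were multiparous Holstein cows, each sampled on 5 days counted from dry-off (D0), when milking stopped: D-3, D3, D7, D14, D25. From dry-off on, HT cows had shade only, whereas CL cows had shade with fans and water soakers, so that the D-3 samples of both groups came before the treatments. The air was warm and humid for both groups, and the comparison is therefore of cows with and without active cooling. Successive biopsies of a cow were taken from alternating glands of the udder.

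After dry-off the mammary gland involutes. Milk synthesis stops, part of the secretory epithelium is lost, and the gland then passes through a steady-state phase before it is rebuilt ahead of calving. D14 was chosen in the study to stand for the steady-state phase. Heat is known to act on cells through misfolded proteins, which activate heat shock factors and raise the chaperones that refold proteins. In the whole animal it also acts through hormones, among them glucocorticoids and prolactin, and through lower feed intake. In a biopsy of the whole tissue, fewer cells of a type and less RNA per cell cannot be told apart.

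Reads were counted per locus, and levels are given as CPM, counts scaled to the size of the library, after TMM scaling, which adjusts for differences in library composition. Total counts at D14 ranged from 21082110 to 23853504 per library, so that after this scaling 1 CPM stood for 18.8 (CL cow 7965) to 24.7 reads, and counting error is large only for loci near or below that level. Over the loci tested, the median standard error of a log2 fold change was 0.22.

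One library went against its tissue label in part. The CL library of cow 7965 held very little RNA of the luminal epithelial markers and of basal keratins, and much RNA of connective tissue genes. KRT19, a keratin of luminal epithelial cells, was at 3.7 CPM in it and between 253 and 1809 CPM in the other 11 libraries. The summed level of the 5 luminal epithelial markers that could be tested, out of 11 listed, was 12.0 CPM in cow 7965. It was 844 to 1556 CPM in the other 5 CL libraries and 825 to 3426 CPM in the HT libraries. None of the 5 was at 0 in any library. The keratins KRT5 and KRT17 of basal epithelium were at 7.3 and 1.4 CPM in cow 7965. However, ACTA2, a smooth muscle actin shared by myoepithelial cells and vessel walls, was highest there at 1642 CPM. The sum of the 5 myoepithelial markers tested, which include these 3, was 2127 CPM there. It was 773 to 1358 CPM in the other 5 CL libraries and 762 to 2220 CPM in HT. Of the milk protein genes, CSN2 and CSN1S1 were lowest in cow 7965, at 64.6 and 51.3 CPM. LALBA, named after its values were seen, was at 8.94 CPM there and at 2.44 to 927 CPM in the other 5 CL libraries. Among connective tissue genes, DCN, a proteoglycan made by fibroblasts, was at 5985 CPM in cow 7965 and between 614 and 1745 CPM in the others. FN1, which encodes the matrix protein fibronectin, reached 8155 CPM against 582 to 2080 CPM. In all, 283 loci lay at least 4-fold below the lowest of the other 11 libraries and 124 at least 4-fold above the highest. With that cow set aside, no other library stood as far outside the rest at more than 14 loci. Counts at each threshold at D14 are therefore given with and without cow 7965, as is every named gene whose direction or call changed without it.

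**Figure D1:**
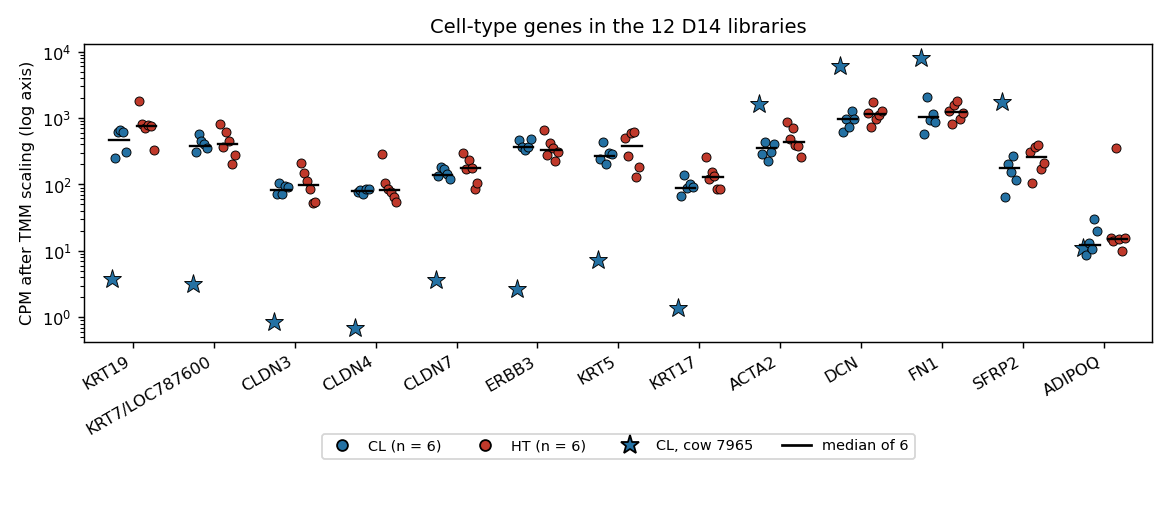
CPM after TMM scaling (log axis) of 13 cell-type genes in the 12 D14 libraries, with 1 point per library, CL in blue, HT in red, a star for CL cow 7965 and a bar at the median of 6. In cow 7965 the keratins and claudins sit far below the other libraries and DCN, FN1 and SFRP2 far above them.

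A few other libraries were high in genes of tissue outside the epithelium. In HT cow 8541 the fat cell hormone ADIPOQ was at 350 CPM, against 8.6 to 30.4 CPM in the other 11 libraries. The other adipocyte marker tested, FABP4, did not single out cow 8541. The sum of both markers was 636 CPM in cow 8541 and 510 CPM in cow 7965. It was 31.9 to 176 CPM in the other 5 CL libraries. The skeletal muscle myosin MYH2 was at 10.6 CPM in HT cow 8314 and at or below 0.5 CPM elsewhere. Of the 14 marker lists, 7 (T cell, B cell, macrophage, neutrophil, mast cell, erythrocyte and skin keratinocyte) could not be paired with any locus, so the immune content of the biopsies was not measured here. The plasma cell marker DERL3 was at 12.9 to 18.1 CPM in HT and 7.65 to 20.5 CPM in CL.

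The cow numbers were checked with the 100 loci whose level was most particular to a cow over D-3, D3 and D7. At D14, 10 of the 12 libraries matched their own cow best, cow 7965 among them with a correlation of 0.60. The libraries labelled cow 8513 and cow 8660 each matched the other cow instead, with correlations of 0.95 and 0.94. Over all loci tested, deviations from the group mean were less particular to a cow. By that measure only 4 of the 12 libraries correlated best with the earlier samples of their own cow among the 6 cows of their treatment, and cow 7965 was not one of them. Cows 8513 and 8660 are both HT, so the comparison of HT with CL at D14 holds the same libraries either way.

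No locus differed between HT and CL at D14 at a false discovery rate (FDR) of 5%. In edgeR's quasi-likelihood fit the smallest FDR among the 14714 loci tested was 0.998, and the share called was 0 percent. Without cow 7965 the count was also 0, with a smallest FDR of 0.990. At an unadjusted p under 0.05 there were 247 loci (1.68% of those tested), 115 higher (0.782%) and 132 lower (0.897%) in HT. Without cow 7965 there were 308 (2.09%), 159 higher (1.08%) and 149 lower (1.01%). DESeq2 likewise called 0 loci at this FDR and had 267 at an unadjusted p under 0.05. The latter count varied with the fit. It was 794 with limma-voom and sample weights, 376 with tagwise dispersions, 582 without cow 8603 and 181 without cow 8686. Each of these also called 0 loci at the FDR of 5%.

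The study also used a less stringent threshold, which combines an unadjusted p no larger than 0.005 and an absolute log2 fold change no smaller than 0.5. In the fit used here this gave 8 loci at D14 (0.0544% of those tested), of which 8 were higher and 0 lower in HT. The study itself reported more genes at this threshold at D14, as it did at D3, D7 and D25. Why the counts differ was not tested. Leaving out cow 7965 gave 16 loci (0.109%), 10 higher (0.068%) and 6 lower (0.0408%), and 5 loci passed in both fits. The 8 to 0 split also depended on the fit. With all 12 libraries there were 26 higher and 31 lower with tagwise dispersions, the kind named in the methods of the study, and 17 higher and 53 lower with dispersions from all 60 samples. DESeq2 gave 17 higher and 5 lower, and leaving out cow 8603 gave 19 higher and 9 lower. At D-3, before any treatment, the same threshold gave 8 loci as well (0.0544%). The shares at D3, D7 and D25 were 0.0204%, 0.319% and 0.0408%, with 3, 47 and 6 loci. The D14 count was therefore as large as that between the groups before the treatments began.

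Only 3 of the 8 loci could be paired with a gene symbol. The largest difference among them was in SPATA16 (ENSBTAG00000031802), a gene known from sperm formation. SPATA16 was at 1.76, 3.31 and 5.71 CPM (lowest, median, highest) in HT and at 0, 0.26 and 1.02 CPM in CL. In reads this was 42 to 114 per HT library and 0 to 23 per CL library. Every HT library lay above every CL library. The log2 fold change was 2.95 ± 0.71 (SE), with an unadjusted p of 0.00115 and an FDR of 0.998 in edgeR. A two-sided exact permutation test on log2 CPM over the 924 splits of the cows gave p = 0.00216, the smallest it can give. SPATA16 was picked from all loci tested for its difference in these same libraries, so this p is not separate support. The same holds for the permutation p of SCG3 and of MT2A below. Without cow 7965 the log2 fold change was 2.74 ± 0.69, and the groups still did not overlap.

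SPATA16 stayed past the less stringent threshold when any of the 12 cows was left out, with p from 0.0007 to 0.0033. It missed the threshold in a fit that shared its dispersion over all 60 samples, where p was 0.00846. On the earlier days its log2 fold change lay near 0. It was 0.08 ± 1.35 at D-3, -0.14 ± 1.06 at D3 and 0.11 ± 0.72 at D7. The medians were nevertheless higher in HT, at 0.71 against 0.09 CPM at D-3, 1.14 against 0.29 CPM at D3 and 0.37 against 0.28 CPM at D7. The highest values at D-3 and D3 were in CL, at 5.99 and 5.12 CPM. At D25 the log2 fold change was 2.70 ± 0.72 with an unadjusted p of 0.00231 in edgeR. Those are the same cows sampled again, and at D25 the groups overlapped. The change from D-3 to D14 differed between HT and CL by 2.87 ± 1.47 on the log2 scale, with an unadjusted p of 0.0565.

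The other pair of loci with a symbol were SCG3 and MT2A. SCG3 encodes secretogranin III, a protein of secretory granules in hormone-releasing cells. It was at 0.84, 1.37 and 2.40 CPM in HT and at 0.35, 0.59 and 1.01 CPM in CL. The highest CL value was that of cow 7965, and without it the groups did not overlap. The log2 fold change was 1.32 ± 0.35 (unadjusted p = 0.00252, exact permutation p = 0.00433), and 1.51 ± 0.35 without cow 7965. SCG3 stayed past the less stringent threshold in only 5 of the 12 fits with a cow left out, with p up to 0.00696 and a log2 fold change down to 1.15. Its counts were 8 to 53 reads per library.

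MT2A encodes a metallothionein, a small metal-binding protein whose gene responds to zinc and to glucocorticoids. Its level was 27.9, 50.0 and 85.7 CPM in HT and 13.4, 21.1 and 37.4 CPM in CL. Of the 6 HT libraries, 3 lay above every CL library and the others fell among them. The log2 fold change was 1.17 ± 0.34 (unadjusted p = 0.00481, exact permutation p = 0.0216). Without cow 7965 it was 1.11 ± 0.36 with an unadjusted p of 0.00942, which missed that threshold, and it passed in 5 of the 12 fits with a cow left out. A paralogue, MT1E, was at 4.12, 10.7 and 20.6 CPM in HT and 1.05, 4.11 and 11.4 CPM in CL, with a log2 fold change of 1.04 ± 0.57 and an unadjusted p of 0.0884. Reads may be shared between such near-identical genes, so the level of each is uncertain.

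The 5 loci without a symbol carry only an ENSEMBL identifier here. XLOC_003109 (ENSBTAG00000036101) had the smallest p of the 8, 7.15e-04. It was at 20.02, 28.1 and 32.4 CPM in HT and at 14.5, 16.9 and 20.7 CPM in CL, so that 5 of 6 HT libraries lay above all CL libraries. Its log2 fold change of 0.65 ± 0.15 (0.60 ± 0.15 without cow 7965) was accompanied by 0.58 ± 0.29 at D-3, 0.55 ± 0.25 at D3, 0.50 ± 0.24 at D7 and 0.33 ± 0.27 at D25. The difference at D14 was thus close in size to the one that preceded the treatments, and the change from D-3 differed between the groups by 0.07 ± 0.36, or by -0.31 ± 0.23 without the samples of cow 7965.

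For 2 more of these loci the difference was also present before dry-off. XLOC_004367 (ENSBTAG00000015058) had a log2 fold change of 1.79 ± 0.49 at D14 (1.83 ± 0.52 without cow 7965) and 2.25 ± 0.64 at D-3, where the groups did not overlap. XLOC_013571 (ENSBTAG00000019588) was at 17.8, 63.8 and 341 CPM in HT and 8.50, 14.4 and 55.1 CPM in CL. The difference on the log2 scale was 2.72 ± 0.78 at D14 and 1.84 ± 0.61 at D-3. Without cow 7965 the D14 value was 2.69 ± 0.85 with an unadjusted p of 0.00757, which missed the threshold. The difference stood between 1.68 and 2.24 on the other days.

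In contrast, XLOC_014345 (ENSBTAG00000001417) had similar levels at D-3 and D3 and higher levels in HT from D7. It was at 1.72, 11.4 and 48.1 CPM in HT and 0.25, 1.87 and 5.20 CPM in CL at D14. The log2 fold change was 2.95 ± 0.76 at D14, against 0.39 ± 0.76 at D-3, 2.50 ± 0.65 at D7 and 1.92 ± 0.72 at D25. Without HT cow 8541, which held the 48.1 CPM, it was 2.24 with an unadjusted p of 0.00564. The last locus, XLOC_007416 (ENSBTAG00000013848), had a log2 fold change of 0.70 ± 0.20, and without cow 7965 it was 0.63 with an unadjusted p of 0.0117. It stayed past the threshold in only 2 of the 12 fits with a cow left out.

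**Figure D2:**
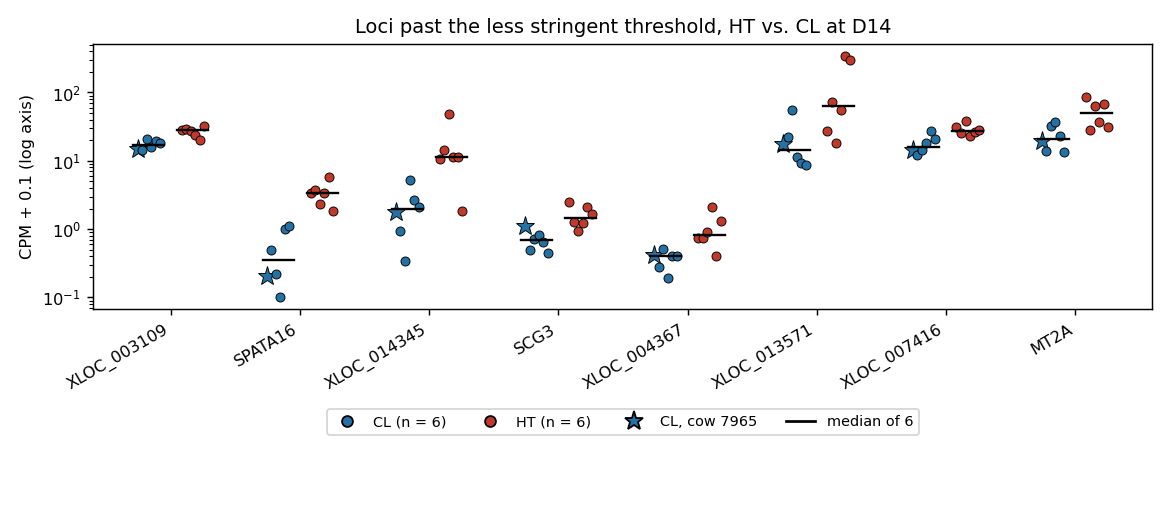
CPM + 0.1 (log axis) in each of the 12 D14 libraries for the 8 loci past the less stringent threshold, ordered by p, with CL in blue, HT in red, a star for CL cow 7965 and a bar at the median of 6. The medians are higher in HT at each of the 8 loci, and HT and CL points are fully separated only for SPATA16.

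**Figure D3:**
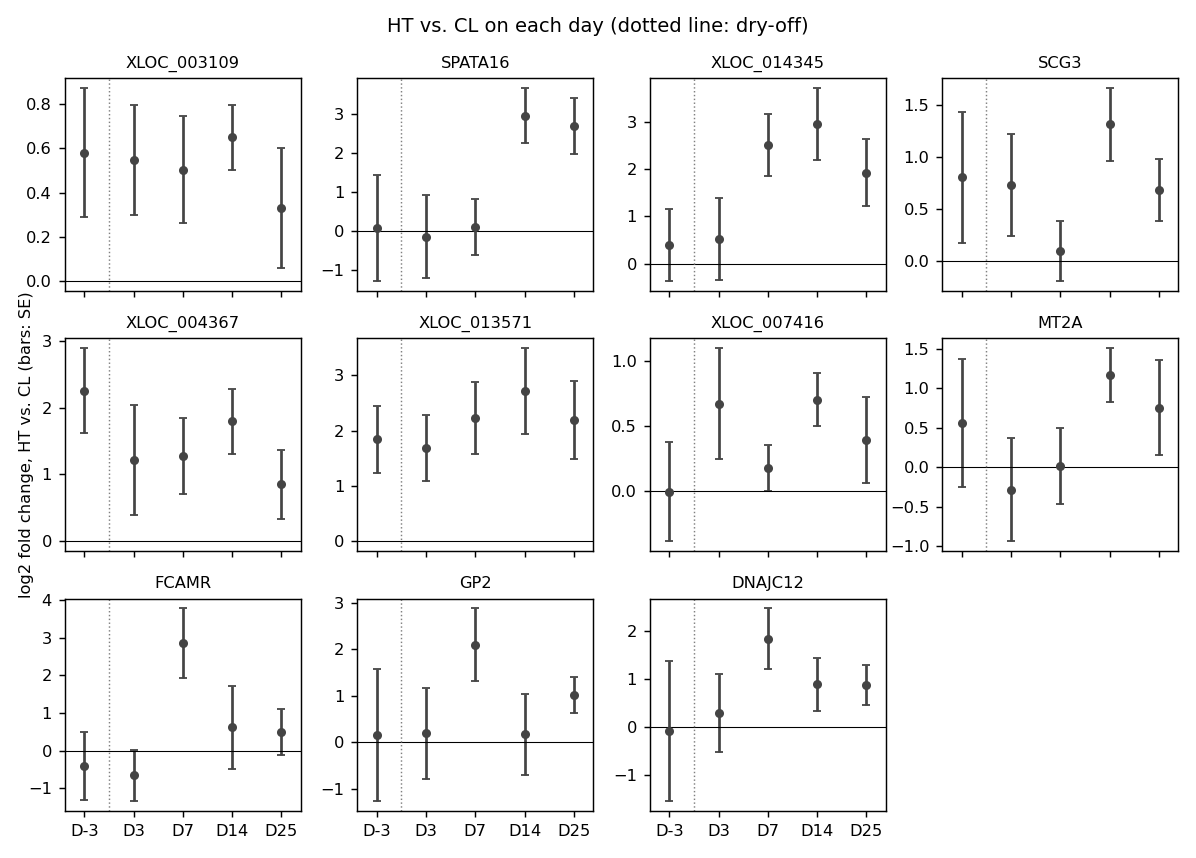
Log2 fold change of HT vs. CL with its standard error on each of the 5 sampling days, for the 8 loci past the less stringent threshold at D14 and for FCAMR, GP2 and DNAJC12 (6 HT and 6 CL cows on each day, the same cows throughout). SPATA16 and XLOC_014345 lie near 0 at D-3 and near 2.95 at D14, whereas XLOC_003109, XLOC_004367 and XLOC_013571 lie above 0 already at D-3.

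Groups that did not overlap were as rare. At D14, 1 locus had all HT libraries above all CL libraries (0.0068% of those tested), which was SPATA16, and 3 had all HT libraries below (0.0204%). Over the 924 splits of the cows, the groups of a locus separate fully by chance, in either direction, with a probability of 0.00216. The loci without overlap were thus no more frequent than chance alone gives. The 3 lower loci, named after their values were seen, were XLOC_002123 (ENSBTAG00000046684) with a log2 fold change of -0.30, XLOC_002746 (ENSBTAG00000012037) with -0.21 and XLOC_011542 (ENSBTAG00000013426) with -0.64. Without cow 7965 there were 10 higher (0.068%) and 4 lower (0.0272%). The probability given above is for 12 libraries and does not apply to these counts.

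Of the loci that passed the less stringent threshold only once cow 7965 was left out, 2 had a symbol, both named after their values were seen. PSPH, which encodes the last enzyme of serine synthesis, was at 10.1, 12.1 and 13.2 CPM in HT. In the other 5 CL cows it was at 7.14 to 8.59 CPM, below every HT library, and in cow 7965 it was at 13.3 CPM. PSPH had a log2 fold change of 0.41 ± 0.17 with all 12 libraries and 0.54 ± 0.14 without cow 7965 (unadjusted p = 0.0297 and 0.00183). At D-3 it was -0.92 ± 0.58. LOC531296 was at 34.3, 51.4 and 105 CPM in HT, at 12.8 to 42.5 CPM in 5 CL cows and at 0.21 CPM in cow 7965, with log2 fold changes of 1.67 ± 0.69 and 1.41 ± 0.40. Its median was already higher in HT at D-3, at 42.8 against 28.4 CPM in CL, with overlapping groups.

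The study named 10 genes for heat stress, of which 3 could be paired with a locus here. FCAMR, a receptor for IgA and IgM, was at 0.88, 18.4 and 90.3 CPM in HT and 0, 7.95 and 77.2 CPM in CL. The groups overlapped over nearly their whole range, and the log2 fold change was 0.62 ± 1.10 (0.37 ± 0.93 without cow 7965). GP2, a membrane glycoprotein of mucosal surfaces, had 0.17 ± 0.87 at D14 and turned to -0.11 ± 0.69 without cow 7965, where it was at 0.37 CPM. DNAJC12, a co-chaperone of the HSP40 family, was at 15.6, 35.8 and 77.5 CPM in HT and 5.58, 13.7 and 55.7 CPM in CL, with 0.89 ± 0.56 and an unadjusted p of 0.134 (0.73 ± 0.56 without cow 7965). At D7 the same 3 genes had log2 fold changes of 2.86 ± 0.93, 2.10 ± 0.78 and 1.85 ± 0.64. At D14 the 95% intervals reached from -1.76 to 3.01 for FCAMR, from -1.71 to 2.06 for GP2 and from -0.31 to 2.10 for DNAJC12. With all 12 libraries the D7 value thus lay inside the interval for FCAMR and DNAJC12 and just outside it for GP2. Without cow 7965 the D14 intervals were -1.65 to 2.38, -1.61 to 1.39 and -0.49 to 1.94. The same D7 value then lay inside the interval for DNAJC12 only. Whether D7 and D14 differ was not tested.

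The genes of pathways tied to heat and to involution were described by 18 lists. Of 407 listed symbols, 135 loci could be paired and tested. The symbols came from the part of the study's tables held here, and pairing was uneven. It reached 14 of 20 symbols for milk fat synthesis and 22 of 36 for the cell cycle, but 12 of 40 for chaperones. The loci tested may therefore not stand for their whole lists, nor compare evenly with all loci. At an unadjusted p under 0.05, 2 of the 135 were higher in HT and 0 lower, a share of 1.48% beside 1.68% of all loci. Without cow 7965 the counts were 4 higher and 1 lower (3.7% beside 2.09%). No locus of any list passed the FDR of 5%. Across all loci, 48.7% had a positive log2 fold change with a median of -0.01. Without cow 7965 these were 52.7% and 0.01.

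No chaperone gene, the group known to answer heat in a cell first, passed the test between HT and CL. Of 12 chaperone and co-chaperone loci tested, 9 had a positive and 3 a negative log2 fold change, with a median of 0.12 in both fits and none at an unadjusted p under 0.05. HSPB1, a small heat shock protein named here for having the smallest p of the list, was at 221, 308 and 363 CPM in HT and 172, 233 and 331 CPM in CL. HSPB1 had a log2 fold change of 0.34 (95% interval -0.05 to 0.73), and 0.32 without cow 7965. The mitochondrial chaperone HSPA9 shares its locus with ETF1, and that locus had 0.03 (-0.24 to 0.29). ST13, a partner of HSP70, had -0.03 (-0.30 to 0.24). Both turned sign without cow 7965, to -0.0047 and 0.013. For 9 of the 12 loci the 95% interval lay wholly within 1 log2 unit of 0, as it did for 11 without cow 7965. Of the HSP70 and HSP90 families, HSPA9, HSPA13 and TRAP1 were tested. Other listed members, among them HSPA1A, HSPA8, HSP90AA1 and HSP90AB1, were not among the paired loci and were not analysed here.

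The cold, unfolded protein and antioxidant responses gave no locus at an unadjusted p under 0.05 in either fit. The locus of CIRBP, an RNA-binding protein raised by cold, shared with C7H19orf24, had a log2 fold change of -0.08 (-0.59 to 0.44). In the unfolded protein response, which answers misfolded proteins in the endoplasmic reticulum, 3 of 4 loci were positive and 1 negative with a median of 0.04. Its transcription factor ATF4 had 0.01 (-0.25 to 0.26) and ASNS, an ATF4 target that makes asparagine, 0.07 (-0.22 to 0.37). Of 6 antioxidant loci, 4 were positive and 2 negative. NFE2L2, the factor that drives antioxidant genes, had 0.08 (-0.33 to 0.49) and -0.03 without cow 7965. HMOX1, which degrades heme, had -0.75 (-2.35 to 0.86) with and 0.09 without cow 7965, where it was at 643 CPM. In the list of glucocorticoid-responsive genes, the receptor NR3C1 itself had -0.17 (-0.54 to 0.21) and only MT2A of 3 loci passed the less stringent threshold.

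**Figure D4:**
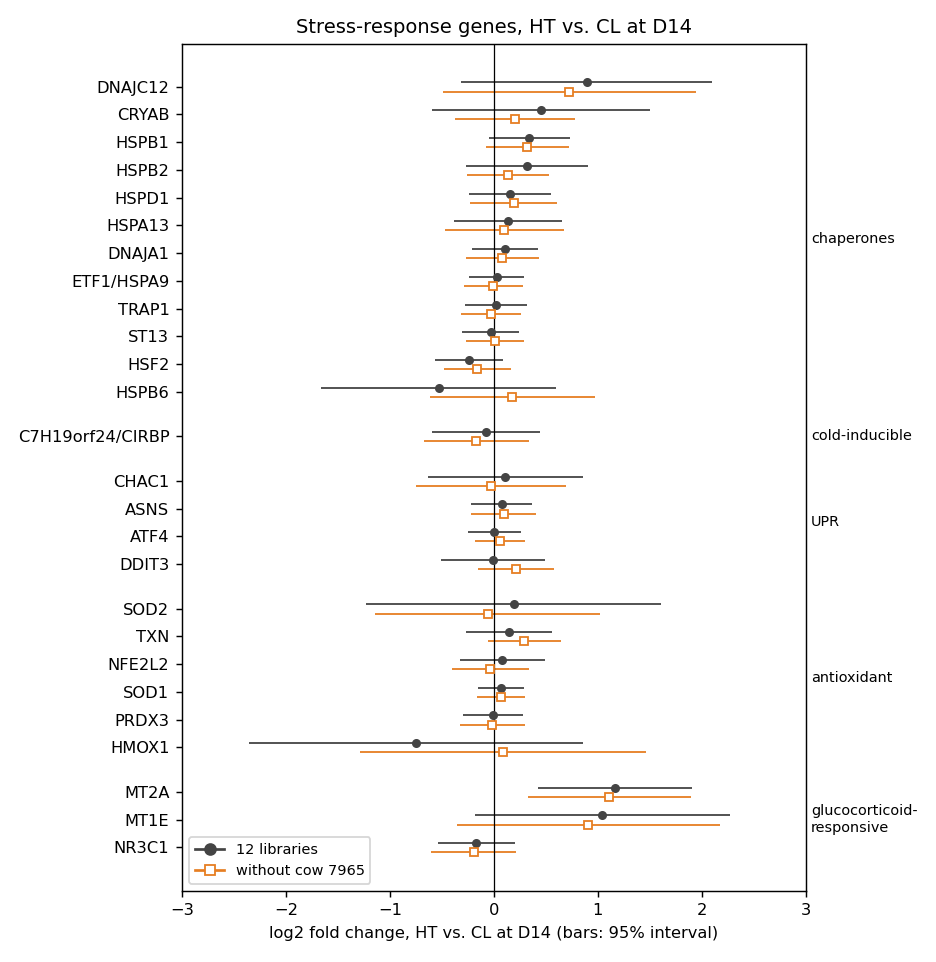
Log2 fold change of HT vs. CL at D14 with its 95% interval for 26 stress-response loci, in all 12 libraries (filled circles) and without CL cow 7965 (open squares). The interval includes 0 for every locus except MT2A, and the circle of HMOX1 lies at -0.75 where its square lies at 0.09.

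Apoptosis and autophagy remove epithelial cells and their contents during involution. Of 8 apoptosis loci 5 were positive and 3 negative with a median of 0.13, and of 7 autophagy loci 5 were positive and 2 negative with a median of 0.07. MCL1, which protects cells from apoptosis, had a log2 fold change of 0.20 (-0.28 to 0.69), and the death receptor TNFRSF1A had -0.02 (-0.31 to 0.28), or 0.02 without cow 7965. The lysosomal membrane protein LAMP1 had 0.07 (-0.34 to 0.47) and the autophagy receptor SQSTM1 had 0.12 (-0.39 to 0.64). None of the 15 had an unadjusted p under 0.05 in either fit.

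Genes of the cell cycle, which mark dividing cells, had a positive log2 fold change at 20 of 22 loci with a median of 0.20, and at 21 with a median of 0.33 without cow 7965. Many of these genes are expressed together in dividing cells, so they are not independent of each other. MKI67, the gene of the Ki67 proliferation antigen, was at 64.9, 126 and 162 CPM in HT and 72.4, 92.1 and 117 CPM in CL, and the lowest value of the 12 was in HT. Its log2 fold change was 0.29 (-0.19 to 0.77) at D14 and 0.76 at D-3. TOP2A, which untangles DNA before division, had 0.20 (-0.47 to 0.86). With all libraries no member of the list had an unadjusted p under 0.05. Without cow 7965, AURKB, a mitotic kinase, had 0.48 with an unadjusted p of 0.0484. The median difference in the change from D-3 was 0.04 for this list.

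Milk protein genes differed more between cows of a group than between the groups. The casein gene CSN2 was at 111, 3928 and 22883 CPM in HT and 64.6, 2418 and 12384 CPM in CL. CSN1S1 ranged from 131 to 16962 CPM in HT and from 51.3 to 13417 CPM in CL. Their log2 fold changes were 0.79 (-1.81 to 3.39) and 0.32 (-2.33 to 2.97), and 0.51 and 0.04 without cow 7965. Of the 3 milk protein loci tested, 2 were positive and 1 negative in both fits. The negative locus was LALBA, with -0.48 (-3.38 to 2.42), and -0.78 without cow 7965. Of 14 loci of milk fat synthesis, 12 were positive with a median of 0.57, which was 13 and 0.36 without cow 7965. FASN, the fatty acid synthase, was at 105 CPM in cow 7965 and at 1092 to 2061 CPM in the other 5 CL cows, and at 681, 1002 and 6012 CPM in HT. FASN had a log2 fold change of 0.61 (-0.81 to 2.04), and that of XDH, an enzyme that also coats milk fat globules, 0.67 (-0.52 to 1.86). The luminal epithelial markers, whose 5 loci were also positive in both fits with medians of 0.62 and 0.34, moved with this list, and their part in it was not tested.

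Hormone and growth factor signalling genes gave 8 positive and 3 negative loci of 11, and 4 and 7 without cow 7965. ERBB3, a receptor for neuregulins on epithelial cells, was at 229 to 657 CPM in HT, at 334 to 476 CPM in 5 CL cows and at 2.66 CPM in cow 7965. Its log2 fold change turned from 0.15 to -0.12 without that cow. ERBB2, its partner, turned likewise from 0.17 (-0.62 to 0.96) to -0.05 (-0.54 to 0.44), and was at 37.7 CPM in cow 7965. The insulin receptor INSR had -0.17 with all libraries and -0.36 (-0.71 to -0.02) without cow 7965, with an unadjusted p of 0.0408. Of 7 loci of WNT signalling and branching, 3 were positive with a median of -0.07, and 5 were positive with a median of 0.13 without cow 7965. SFRP2, a secreted WNT modulator made by stromal cells, had -0.70 and 0.68, and GATA3, a luminal transcription factor, had -0.07 and -0.34.

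The stromal lists turned most with cow 7965. Of 7 loci of the extracellular matrix and its remodelling, 2 were positive and 5 negative with a median of -0.44, whereas without cow 7965 all 7 were positive with a median of 0.32. FN1 had log2 fold changes of -0.85 (-2.11 to 0.41) and 0.17 (-0.49 to 0.82), and DCN had -0.58 (-1.72 to 0.56) and 0.35 (-0.16 to 0.87). The lysyl oxidase LOXL4, an enzyme that crosslinks collagen, was at 0.46, 1.59 and 4.43 CPM in HT and 0.13, 0.67 and 1.32 CPM in CL. Its log2 fold change of 1.36 ± 0.59 had an unadjusted p of 0.0395, and it had been 2.18 ± 0.81 at D-3. For blood vessel growth, 1 of 7 loci was positive with a median of -0.34, and 4 were positive with a median of 0.00 without cow 7965. The receptor KDR was at 392.5 CPM in that cow and at 107 to 175 CPM in the other 11, and its log2 fold change turned from -0.34 to 0.04 without that cow. VEGFA, its ligand, had -0.11 (-0.39 to 0.17).

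**Figure D5:**
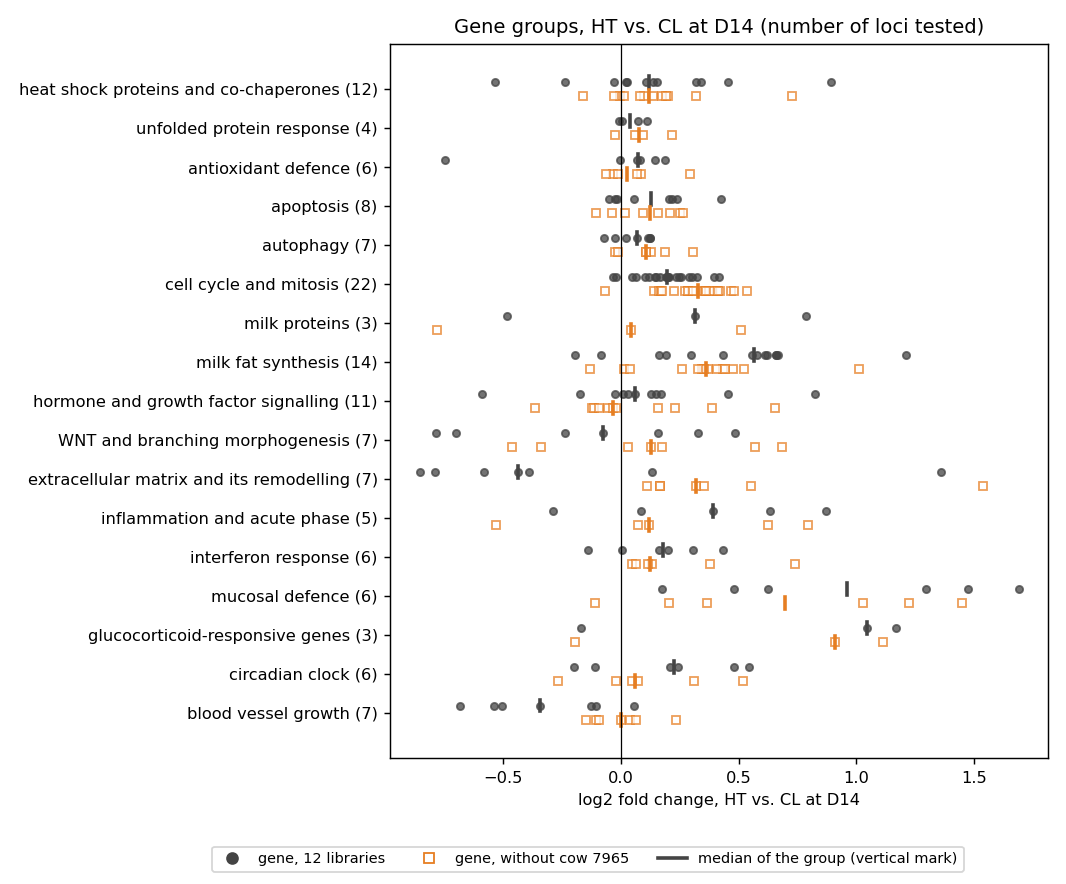
Log2 fold change of HT vs. CL at D14 for each tested locus of 17 gene groups, in all 12 libraries (filled circles) and without CL cow 7965 (open squares), with the median of each group as a vertical mark and its number of loci in brackets. The median of the matrix group moves from -0.44 to 0.32 and that of blood vessel growth from -0.34 to 0.00, while that of the chaperones stays at 0.12.

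Immune and mucosal lists gave no locus at an unadjusted p under 0.05 with all libraries. Of 5 loci of inflammation and the acute phase 4 were positive. The complement component C3 was at 465, 871 and 6228 CPM in HT and 508, 689 and 3207 CPM in CL, with a log2 fold change of 0.87 (-0.63 to 2.37), and 0.80 without cow 7965. LBP, which binds bacterial lipopolysaccharide, had 0.39 (-1.31 to 2.10) and was at 2.87 CPM in cow 7965. Of 6 interferon response loci 5 were positive, and 6 without cow 7965. STAT2 had 0.00 (-0.25 to 0.26), the locus shared by IRF9 and RNF31 had 0.16 (-0.15 to 0.47), and the antiviral protein gene ISG15 had 0.74 with an unadjusted p of 0.0409 without cow 7965. All 6 loci of mucosal defence were positive with a median of 0.96, and 5 were positive with a median of 0.70 without cow 7965. Among them the mucin MUC15 had 1.29 (-1.16 to 3.75), with 0.053 CPM in cow 7965, and the trefoil factor TFF3 had 0.48 (-1.19 to 2.15) and was at 0.11 CPM there. The luminal epithelial markers moved the same way as this list, with all 5 loci positive in both fits, and their part in it was not tested.

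Of 6 circadian clock loci, 4 were positive in both fits, with medians of 0.23 and 0.06. BHLHE40 had a log2 fold change of 0.54 (-0.35 to 1.44) and PER1 had 0.48 (-0.14 to 1.10). From D-3 to D14, the change of PER1 was higher in HT than in CL by 0.90 ± 0.44 on the log2 scale, with an unadjusted p of 0.0466 in edgeR. Without the samples of cow 7965 it was higher by 0.87 ± 0.45, with an unadjusted p of 0.0579 in edgeR. With all samples, no other locus of the 135 had a difference in change at an unadjusted p under 0.05, a share of 0.741% beside 1.53% of all loci.

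The comparison at 1 day cannot separate the treatment from differences between the cows. The change from D-3 to D14 was therefore compared between HT and CL in a fit of all 60 samples. This main fit had a mean for each treatment on each day and no term for the cow. It thus treated the samples of a cow as independent, here and wherever a change from D-3 is given above. No locus passed the FDR of 5%, with a smallest FDR above 0.99 in edgeR and 225 loci (1.53%) at an unadjusted p under 0.05, 75 higher (0.51%) and 150 lower (1.02%). The less stringent threshold gave 29 loci (0.197%), 7 with a higher (0.0476%) and 22 with a lower change in HT (0.15%). With the cow as a replicate block it gave 10, 5 higher and 5 lower. Without the samples of cow 7965 from any day it gave 10, 9 higher and 1 lower. Most of the lower changes were thus called only with that cow in the fit. Leaving out its D14 library alone was not tried. None of the 8 loci of D14 had an unadjusted p under 0.005 for this change. XLOC_014345 had the smallest of them, 0.032 for a difference of 2.55 ± 1.16.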

How the data were processed

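Per the labels and methods of the study, total RNA of mammary biopsies was made into libraries with a NEBNext Ultra kit and sequenced on an Illumina NextSeq instrument. The authors trimmed reads with Trim Galore (0.4.1), mapped them with TopHat2 (2.0.13), merged Cufflinks (2.2.1) transcripts with the ENSEMBL annotation, and counted unique reads with HTSeq. Methods and submitters' notes name different bovine builds (bosTau7 and UMD3.1), so no coordinates are given. The deposited values are raw counts per locus. Each of the 26073 entries belongs to 1 of 25223 loci, and 742 loci join several ENSEMBL genes. The kit does not mark strand, so antisense reads cannot be told apart.

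The 14714 loci that reached 1 CPM in 6 or more of the 60 samples were tested with edgeR 4.0.16 (R 4.3.3): TMM factors and quasi-likelihood F-tests, Benjamini-Hochberg FDR, on the 12 samples of D14, and for the change from D-3 on all 60. Single loci had two-sided exact permutation tests on log2 CPM (prior count 2). The methods name tagwise dispersions, which were tried as an alternative to the trended default. Other alternatives were RLE factors, library size only, DESeq2 1.42.0, limma 3.58.1 (voom with sample weights), other filters, and each cow left out. Tests were tried on simulated counts. Tables and figures used Python 3.11.15, pandas 2.3.3 and matplotlib 3.10.9.

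Symbols came from names in the part of the Supplementary Tables held here, for 3028 loci. The list genes not paired were not analysed here. No sequences are printed, since none was held. Members, lists and tests were chosen with earlier results of these data known. Genes named were those with a symbol past the less stringent threshold and 3 others by p, the genes the study names for heat stress, and, of each list, members with p of at most 0.05 and the 2 with the highest mean CPM. Others are said to be chosen after their values were seen, or stand as markers.

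Samples of a cow are paired by the labels, which give the cow as subject. The check of this pairing by cow-specific loci is in the report. In the fit at 1 day each cow occurs once, so no block was possible there. The main fit of the change from D-3 had no block for the cow either, and the block was run as an alternative.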

Additional observations from a re-analysis of the deposited data

Results flagged for a closer look

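Of 40 groups of 6 libraries checked for a single library far from the rest by Dixon's ratio, 5 passed the 95% critical value for 6 samples. Chance alone gives about 1 in 20. In CL, 4 of the 5 were the library of cow 7965. Its sum of luminal epithelial markers had a ratio of 0.874, with KRT19 at 3.7 CPM. The ratio was 0.675 for the fibroblast marker DCN, 0.659 for the endothelial markers KDR and EMCN, and 0.922 for its median correlation with the other libraries, which was 0.833 where the other 11 had 0.926 to 0.957. In HT, the skeletal muscle markers of cow 8314 had a ratio of 0.79, from MYH2 at 10.6 CPM.

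The level of SEMA5B, named after its values were seen, shows how far 1 library can carry a fit. Its log2 fold change was -2.92 with all libraries and -0.44 without cow 7965, which held 73.1 CPM beside at most 4.27 CPM in the other 5 CL cows.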

How the results depend on the processing

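The count of 0 loci at an FDR of 5% held for HT vs. CL at D14 and for the change from D-3 under every alternative run. At D14 the smallest FDR was 0.0804 with DESeq2, which left 235 loci without an adjusted p, 0.0917 with tagwise dispersions and 0.097 in the fit of all 60 samples. At the less stringent threshold the 8 loci became 22 with DESeq2 (17 higher, 5 lower), 17 with voom (15 higher, 2 lower), 57 with tagwise dispersions (26 higher, 31 lower), 22 with no filter and 70 in the fit of all 60 samples (17 higher, 53 lower). The cause of these differences was not tested. Each cow left out in turn gave 4 to 28 loci: 4 without cow 8686, 5 without 8060, 16 without 7965 and 28 without 8603 (19 higher, 9 lower). Chosen after seeing the data, the fit without cows 7965 and 8541 gave 14 and that without cow 7965 at library size only gave 13.

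For the change from D-3 the 29 loci became 10 with the cow as a replicate block, 10 with that block after exchanging the D14 and D25 samples of cows 8513 and 8660, 8 with the block and without cow 7965 (added later), and 3 with the samples of D-3 and D14 only. Each cow left out gave 10 to 48: 10 without 7965, 14 without 8668, 44 without 8060 and 48 without 8686.

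Of the 8 loci at D14, SPATA16 and XLOC_003109 passed in 12 of 12 fits with a cow left out, XLOC_014345 in 11, XLOC_004367 in 6, SCG3, MT2A and XLOC_013571 in 5 and XLOC_007416 in 2. All 8 kept their direction in each fit. XLOC_011089 turned from -0.19 to 2.64 without cow 7965 (2.63 at library size only) and was -0.76 without cow 8713. RLE factors and library size changed the sign count of a list by at most 2 loci. Loci near 1 CPM, such as SPATA16 and SCG3, rest on few reads.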

Other observations

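Some genes outside the lists had the smallest p among loci with a symbol and were named after their values were seen. None passed the FDR of 5% or the less stringent threshold at D14, and all are values only. EDIL3, a matrix protein of vessel walls, was at 5.60, 6.50 and 10.9 CPM (lowest, median, highest) in HT and 6.24, 13.02 and 17.1 CPM in CL. Its log2 fold change was -0.76 ± 0.26 at D14, but it had been -1.43 ± 0.30 at D-3 with an unadjusted p of 4.28e-04, before the treatments. E2F2, a transcription factor of the cell cycle, had 0.65 ± 0.24 at D14 and -0.09 ± 0.66 at D-3, with 4 of 6 HT libraries above every CL library. PCK2, a mitochondrial enzyme of gluconeogenesis, was at 16.8, 26.7 and 43.3 CPM in HT and 15.6, 17.6 and 23.5 CPM in CL, with 0.64 ± 0.21. FA2H, which makes hydroxylated fatty acids, had a log2 fold change of 2.198 ± 0.73 at levels of at most 1.55 CPM.

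PSPH stands beside the other enzymes of serine synthesis. PHGDH, the first of them, had a log2 fold change of 0.37 ± 0.31 and PSAT1 had 0.18 ± 0.17 at D14, neither at an unadjusted p under 0.05.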
